A study of Homo sapiens with 6 samples.

Results

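Alpha and beta tubulin genes, which encode the protein that paclitaxel binds, were compared between paclitaxel (PTX)-resistant breast cancer stem-like cells and their non-stem-like counterparts. The 10 genes were listed by name and not by their values, although earlier results of these data were known when they were chosen. They comprise the beta genes TUBB, TUBB2A, TUBB2B, TUBB3, TUBB4A, TUBB4B and TUBB6 and the alpha genes TUBA1A, TUBA1B and TUBA1C, and they are 10 of 61015 genes for which transcript counts could be summed.

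RNA was sequenced from MDA-MB-231, an established human triple-negative breast cancer cell line, after selection for PTX resistance. The cells were sorted by fluorescence on aldehyde dehydrogenase (ALDH) activity into ALDH+ cells, here called BCSC, and ALDH− cells, called non-BCSC, with 3 libraries of each. Both groups are PTX-resistant, so no comparison with drug-sensitive parental cells is made here, and the sorted line is a model in culture rather than a tumour. No source used here says that the 3 libraries of a group came from separate cultures, so p-values measure the spread between these libraries, which may be technical.

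Microtubules are polymers of heterodimers of 1 alpha and 1 beta tubulin. Paclitaxel binds the beta subunit within the polymer and stabilises it, and cells make the dimer from several genes whose proteins differ mainly in the acidic C-terminal tail, where modifying enzymes and motor proteins act. New tubulin is folded by prefoldin, the chaperonin CCT and a set of cofactors, and excess dimer triggers decay of tubulin mRNA through TTC5, which reads the first residues as they leave the ribosome.

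The ends of the beta coding sequences are shown because they encode the acidic tail by which isotypes are told apart, although the genes also differ elsewhere. Each line gives the last 60 coding bases of the principal transcript, 5′ to 3′ with the stop codon. Capitals mark bases that differ from TUBB when these 60 bases alone are aligned with those of TUBB. Bases of TUBB that the other gene lacks are neither marked nor counted.
TUBB: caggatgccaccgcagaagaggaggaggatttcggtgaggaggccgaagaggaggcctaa
TUBB4B: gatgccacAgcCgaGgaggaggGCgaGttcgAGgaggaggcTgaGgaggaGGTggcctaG
TUBB6: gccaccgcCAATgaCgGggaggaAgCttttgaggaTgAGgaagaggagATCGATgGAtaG
TUBB3: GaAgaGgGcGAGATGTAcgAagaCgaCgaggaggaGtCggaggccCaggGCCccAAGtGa
TUBB2A: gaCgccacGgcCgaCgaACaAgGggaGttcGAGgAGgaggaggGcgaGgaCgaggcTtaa
TUBB4A: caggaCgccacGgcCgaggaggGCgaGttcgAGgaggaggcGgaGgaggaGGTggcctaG
These lie in GRCh37 at chr6:30692115-30692174 for TUBB, chr9:140137949-140138008 for TUBB4B, chr18:12326070-12326129 for TUBB6, chr16:90002153-90002212 for TUBB3, chr6:3154097-3154156 for TUBB2A and chr19:6495175-6495234 for TUBB4A. Of the 60 bases, 14 differed from TUBB in TUBB4B and in TUBB4A, 18 in TUBB2A, 19 in TUBB2B, 20 in TUBB6 and 25 in TUBB3. The coding sequences as a whole were 81.0 to 98.1% identical among the beta genes and 95.9 to 97.2% among the alpha genes, against 55.2 to 57.3% between the classes. At the other end, the first 12 coding bases were ATGAGGGAAATC in TUBB and TUBB4B and ATGAGGGAGATC in TUBB3 and TUBB6. All 3 alpha genes began ATGCGTGAGTGC.

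Similar sequence limits what a read can be assigned to. TUBB2A and TUBB2B, which differ at 25 of 1338 coding bases, shared the most with another member, since 53.7% of all 100-base windows of the TUBB2A transcript also occur in TUBB2B. Their values are therefore uncertain as to which of the pair the reads came from. TUBA1B shared 37.2% of its windows with another gene, TUBA1A 21.2% and TUBA1C 12.3%, whereas TUBB shared 5.42%, TUBB4B 3.01%, and TUBB4A and TUBB6 none. TUBB3 shared 92.5% of its windows with an annotated readthrough gene (ENSG00000198211), to which no count was assigned in any library. On the opposite strand TUBB2A overlaps BPHL, TUBB2B overlaps PSMG4, TUBB6 overlaps AFG3L2 and TUBB overlaps MDC1, and reads of such pairs cannot be told apart where strand was not used in counting.

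The 6 libraries held 9898588 to 21215352 counts, with every BCSC library deeper than every non-BCSC library. Of the genes that define this mesenchymal-like line, VIM was at 3418 and 2793 CPM (counts scaled to the TMM-adjusted library total) in BCSC and non-BCSC, and the epithelial gene EPCAM was at 0.11 and 1.05. The 5 genes expected high, VIM among them, summed to 6509 to 7618 CPM in BCSC and 4130 to 5588 in non-BCSC. Of these, 3 were higher in BCSC at an adjusted p under 0.05 (edgeR), where 15.3% of all tested genes were. The 5 genes expected low, EPCAM among them, summed to 64.2 to 78.7 CPM in BCSC and 94.6 to 130 in non-BCSC. Of the 4 tested, 1 was lower in BCSC at that threshold, where 14.6% of all tested genes were. ALDH1A3 averaged 29.8 CPM in BCSC and 17.5 in non-BCSC (adjusted p = 0.0577, edgeR), whereas ALDH1A1 was nearly absent and lower in BCSC (0.23 against 2.89 CPM). Of these 2 genes only ALDH1A1 had an adjusted p under 0.05 (edgeR), with the lower level in the ALDH+ cells. It was not called with the correction for GC content and length described below. Non-BCSC libraries carried more counts over olfactory receptor genes, which are not expected to be expressed in this line (520 to 1180 CPM on the unadjusted library total, against 36.95 to 145 in BCSC). Marker sums for blood cells (0.20 to 1.45 CPM against 14.2 to 23.9), endothelial cells (18.5 to 33.8 against 46.8 to 88.2) and fibroblasts (6.13 to 11.0 against 12.6 to 24.9) were also lower in BCSC. Their part in the tubulin values was not tested.

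Of the 10 tubulin genes, 5 were higher in BCSC, none was lower, and 5 did not meet both criteria. A gene was called at an adjusted p under 0.05 with a change beyond 2-fold (edgeR quasi-likelihood test, Benjamini-Hochberg adjustment over all 20442 genes tested), by which 8.85% of all tested genes were called higher and 11.3% lower. All 10 members passed the filter on low counts. By adjusted p alone 6 members were higher and none lower, where 15.3% and 14.6% of tested genes were. The genes called were TUBB, TUBB4B, TUBB6, TUBB3 and TUBA1C. In 8 of 10 members every BCSC library lay above every non-BCSC library, an arrangement shown by 24.2% of tested genes, and no member had all BCSC libraries below, as 27.9% did. The median log2 fold change was 1.06 over the 10 members and −0.05 over all tested genes. Without BCSC replicate 1, the deepest library, 2 members were called (TUBB4B and TUBB6). The share of all tested genes called without that library is not given here, so a general loss of calls cannot be told apart. After correction of each library for GC content and transcript length none was called, against 15.1% of all genes called higher and 9.04% called lower in that fit. RNA was taken from sorted populations in bulk, so fewer cells of a kind and less RNA per cell cannot be told apart.

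**Figure D1:**
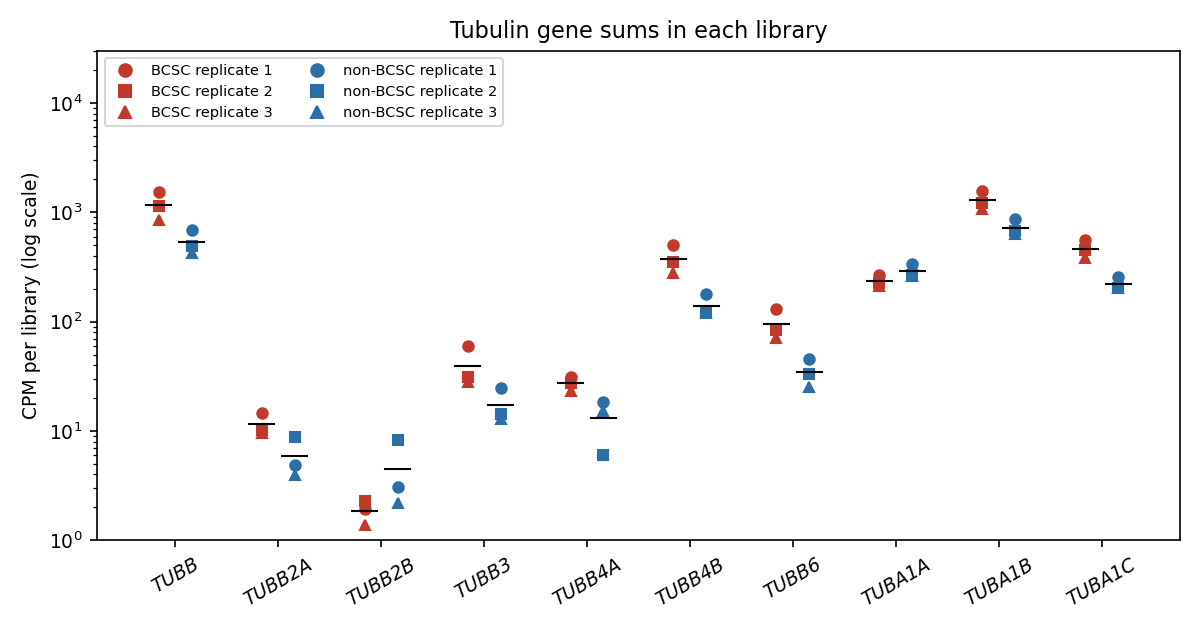
CPM of each of the 10 tubulin genes in each library on a log axis, with BCSC in red, non-BCSC in blue and a black bar at the group mean (n = 3). The BCSC points lie above all non-BCSC points for 8 genes, while TUBA1A and TUBB2B overlap between groups.

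TUBB, the class I beta tubulin that most dividing cells use (ENSG00000196230, GRCh37 chr6:30685212-30693315, plus strand), was the beta gene with the highest level. It was at 1540, 1146 and 844 CPM in BCSC replicates 1 to 3 and at 688, 496 and 421 CPM in the non-BCSC replicates. The groups did not overlap, and replicate 1 was the highest library in each. The log2 fold change was 1.14 ± 0.23 (SE, adjusted p = 0.00702). Left out in turn, single libraries moved it between 0.89 and 1.41, with the lowest value, under the fold limit, without BCSC replicate 1. It was also under that limit with at least 10 counts required in every library (0.99, adjusted p = 0.0248). With the olfactory receptor background removed it was 0.90 (adjusted p = 0.0157).

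TUBB4B, a class IV beta tubulin found in many tissues and in cilia (ENSG00000188229, chr9:140135739-140138159, plus strand), was the second beta gene. Its 3 BCSC libraries were at 500.2, 349 and 279 CPM, and its non-BCSC libraries were at 177, 123 and 119 CPM. Every BCSC value exceeded every non-BCSC value, with a log2 fold change of 1.43 ± 0.22 (adjusted p = 0.0024). It was called whichever single library was left out. TUBB6, a class V beta tubulin of broad but low expression (ENSG00000176014, chr18:12307668-12344319, plus strand), gave 131, 84.4 and 70.6 CPM in BCSC against 45.3, 33.1 and 25.1 CPM in non-BCSC. The groups were again separate, and the log2 fold change of 1.47 ± 0.27 (adjusted p = 0.00493) was the highest of the 10 genes. It too was called whichever library was left out.

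TUBB3, the class III beta tubulin of neurons, whose expression in carcinomas has been studied in connection with taxane resistance (ENSG00000258947, chr16:89987800-90005169, plus strand), was far less abundant than TUBB. It was at 59.6, 31.4 and 27.8 CPM in BCSC and at 24.6, 14.3 and 12.8 CPM in non-BCSC. BCSC replicate 1 stood well above the other BCSC libraries, and the lowest BCSC value was only slightly above the highest non-BCSC value. The log2 fold change was 1.20 ± 0.35 (adjusted p = 0.0292). This call was lost without BCSC replicate 1 (0.78, adjusted p = 0.127), without non-BCSC replicate 2 (1.13, adjusted p = 0.0969) and without non-BCSC replicate 3 (1.05, adjusted p = 0.0954). It was also lost with the olfactory receptor background removed (1.07, adjusted p = 0.0528), where that background equalled 3.73 to 15.3% of the TUBB3 counts in the non-BCSC libraries.

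The remaining beta genes are known chiefly from brain. TUBB4A (ENSG00000104833, chr19:6494330-6502859, minus strand) was at 31.4, 27.5 and 23.3 CPM in BCSC and at 18.6, 6.01 and 15.2 CPM in non-BCSC. The groups did not overlap, but the log2 difference of 1.05 ± 0.37 missed the threshold (adjusted p = 0.0586; 1.43 and 0.0361 without non-BCSC replicate 1), and its sign turned with the correction for GC content and length (−0.29, adjusted p = 0.495). TUBB2A (ENSG00000137267, chr6:3153731-3157778, minus strand) was at 14.6, 10.3 and 9.68 CPM in BCSC and 4.87, 8.75 and 3.93 CPM in non-BCSC. Non-BCSC replicate 2 came close to the BCSC values, and the log2 difference was 0.98 ± 0.41 (adjusted p = 0.0932). Without that library it was 1.43 (adjusted p = 0.0473).

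TUBB2B (ENSG00000137285, chr6:3223558-3231964, minus strand) was the least abundant of the 10 genes. It was at 1.92, 2.28 and 1.39 CPM in BCSC and at 3.05, 8.30 and 2.21 CPM in non-BCSC. The groups overlapped, non-BCSC replicate 2 stood alone at the top, and the log2 difference of −1.27 ± 0.69 had an adjusted p of 0.189. Without that library the difference was −0.45 (adjusted p = 0.695). All of its counts were assigned to transcripts annotated as retaining an intron, and its protein-coding transcript had 0 counts in all 6 libraries. The background level over olfactory receptor genes, scaled to transcript length, equalled 30.6 to 189% of the TUBB2B counts in the non-BCSC libraries and 7.48 to 39.4% in BCSC. The same share was 18.7 to 68.3% for TUBB2A in non-BCSC, but at most 1.0% for TUBB and 2.21% for TUBB4B.

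Because TUBB3, TUBB2A, TUBB2B and TUBB4A are known from neurons, neuronal markers were set beside them. Of 10 markers, 5 passed the filter, of which 2 were lower in BCSC (MAP2 and ELAVL4) and none was higher, where 11.3% of all tested genes were called lower and 8.85% higher. With the GC and length correction the same 2 were called lower and SYT1 was called higher (1.32, adjusted p = 0.00291). The summed level of all 10 ran from 26.7 to 39.9 CPM in BCSC and from 66.9 to 102 CPM in non-BCSC. ELAVL3 had 0 counts in every library, RBFOX3 had 0 in BCSC and at most 7 in non-BCSC, and SYP had 2 counts in 1 BCSC library and 0 elsewhere. Their part in the tubulin values was not tested.

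The 3 alpha genes lie close together on chromosome 12, and 1 of them had the opposite sign to the rest. TUBA1B, the leading alpha tubulin of dividing cells (ENSG00000123416, chr12:49521565-49525180, minus strand), was at 1571, 1223 and 1067 CPM in BCSC against 861, 669 and 634 CPM in non-BCSC. The groups were separate and the adjusted p was 0.00599, but the log2 fold change of 0.84 ± 0.16 did not reach the 2-fold limit (1.04 without non-BCSC replicate 1). TUBA1C, a second broadly expressed alpha gene (ENSG00000167553, chr12:49582519-49668383, plus strand), was at 557, 449.9 and 383 CPM in BCSC and at 258, 205 and 202 CPM in non-BCSC. The separation was clear, and the log2 fold change of 1.06 ± 0.15 (adjusted p = 0.00172) was just past the limit. It was under the limit without BCSC replicate 1 (0.91), with an adjusted p of 0.00453. The same held with RLE in place of TMM scaling (0.97) and with at least 10 counts required in every library (0.92). It also held with the olfactory receptor background removed (0.82) and with protein-coding transcripts only (0.94), each time at an adjusted p under 0.05.

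TUBA1A, the alpha tubulin of developing neurons (ENSG00000167552, chr12:49578469-49582863, minus strand), was not higher in BCSC. Its BCSC libraries were at 264.3, 225 and 210.2 CPM and its non-BCSC libraries at 335, 269 and 264 CPM. The BCSC values were the lower ones apart from replicate 1, which fell between the 2 lower non-BCSC values. The log2 difference was −0.31 ± 0.13 (adjusted p = 0.095). It kept its sign in each of the 15 other fits of gene sums, from −0.55 to −0.14, and its adjusted p was under 0.05 in 6 of them.

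GC content, which can change how well a transcript is recovered in a library, was set beside these values. Annotated transcripts of TUBB4A averaged 63.4% GC, of TUBB3 60.9%, of TUBB4B 59.4% and of TUBB6 58.8%, against 53.0% at the upper quartile of tested genes. TUBA1A, TUBA1C and TUBB were the least GC-rich members at 50.2, 51.4 and 52.3%, still above the median of 46.2% over tested genes. The correction used GC content and length averaged over all annotated transcripts of a gene, with or without counts. When each library was corrected for GC content and length, the median log2 fold change of all genes moved from −0.05 to 0.21 and that of the 10 members from 1.06 to 0.30. Of the members, 3 kept an adjusted p under 0.05 and a positive sign, where 25.7% of all tested genes were higher and 10.5% lower by adjusted p alone. TUBA1C had a corrected log2 fold change of 0.98 ± 0.19 (adjusted p = 0.00199), TUBB one of 0.92 ± 0.24 (adjusted p = 0.0109) and TUBB6 one of 0.54 ± 0.19 (adjusted p = 0.0397). None of the 3 reached the 2-fold limit. TUBB4B went to 0.41 ± 0.17 (adjusted p = 0.0792) and TUBB3 to 0.05 ± 0.23 (adjusted p = 0.88). TUBA1B went to 0.39 (adjusted p = 0.114) and TUBB2A to 0.22 (adjusted p = 0.688). TUBA1A and TUBB2B, at −0.27 and −1.55, kept their sign and were not called.

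**Figure D2:**
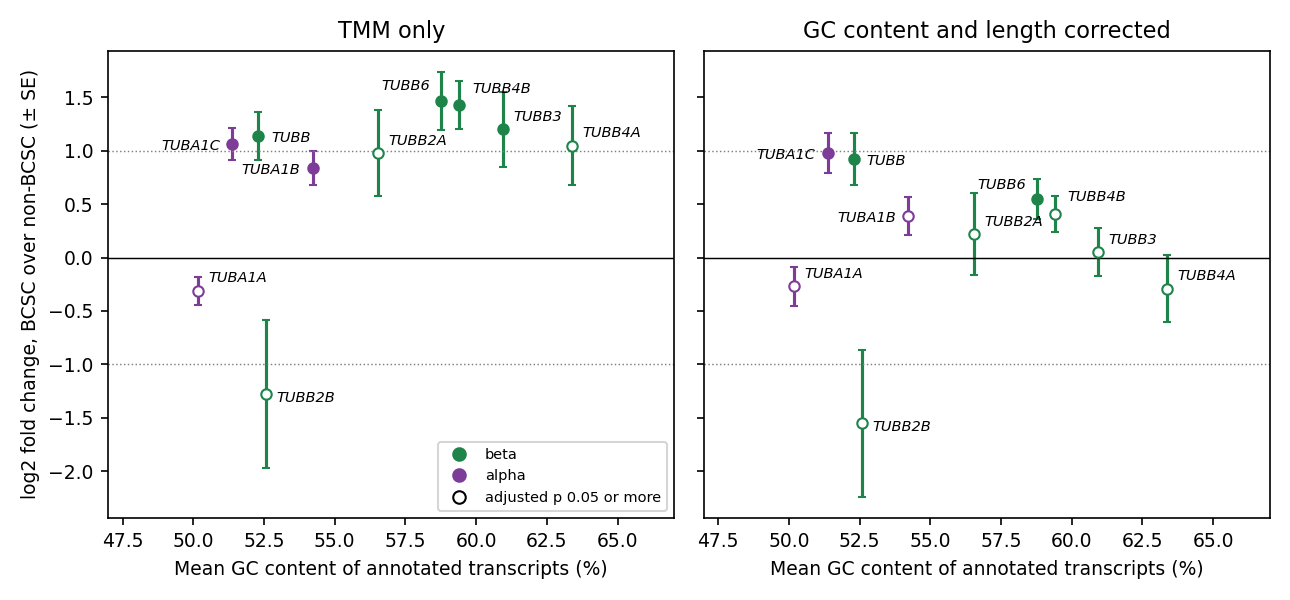
Log2 fold change of BCSC over non-BCSC with its SE for each tubulin gene against the mean GC content of its transcripts, without (left) and with (right) correction for GC content and length. Filled points have an adjusted p under 0.05 and dotted lines mark a 2-fold change. TUBB3, TUBB4B and TUBB6 drop from above 1 on the left to between 0.05 and 0.54 on the right, TUBB4A turns from 1.05 to −0.29, and TUBB and TUBA1C stay near 1.

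Levels of different genes were compared as CPM per kilobase, each transcript's count being divided by its length. In BCSC, TUBA1B led at 780 ± 159 (SD, n = 3), followed by TUBB at 467 ± 139, TUBB4B at 239.5 ± 71.9, TUBA1C at 169 ± 32.01, TUBA1A at 135 ± 13.9 and TUBB6 at 61.6 ± 24.2. The last 4 places went to TUBB3 (21.0 ± 10.1), TUBB4A (12.2 ± 1.76), TUBB2A (7.41 ± 1.56) and TUBB2B (0.52 ± 0.12). Over libraries TUBB4B and TUBA1C overlapped, as did TUBA1C and TUBA1A, and TUBB3 and TUBB4A, but within each of the 3 BCSC libraries every gene was above the next. In non-BCSC, TUBA1A moved up to the third place at 170 ± 28.7, overlapping TUBB at 212 ± 54.3 over libraries but below it within each of the 3. TUBB4B (89.3 ± 20.8) was above TUBA1C (85.3 ± 13.1) in 2 of the 3 libraries. The order of the other genes was the same in both groups, but TUBB3 and TUBB4A, TUBB4A and TUBB2A, and TUBB2A and TUBB2B overlapped over the non-BCSC libraries. Within libraries TUBB4A was above TUBB2A in 2 of 3, and the other pairs kept their order in all 3.

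On that scale the 7 beta genes summed to 1073, 772 and 582 for the BCSC libraries and to 435, 315 and 273 for the non-BCSC libraries. The 3 alpha genes summed to 1306, 1043 and 902 for BCSC and to 829.6, 645 and 618 for non-BCSC. Both sums were higher in every BCSC library than the highest non-BCSC library, and the alpha to beta ratio was lower in BCSC (1.22, 1.35 and 1.55) than in non-BCSC (1.91, 2.05 and 2.26). Neither the sums nor the ratio were recomputed with the correction for GC content and length. In that corrected fit the log2 fold change was 0.92 for TUBB, 0.41 for TUBB4B, 0.39 for TUBA1B and 0.98 for TUBA1C.

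Within the beta sum, TUBB held 57.0, 58.9 and 57.4% in the BCSC libraries and 62.4, 62.4 and 60.9% in the non-BCSC libraries. All BCSC shares were lower, by 4.16 percentage points on average (57.8 ± 1.01% against 61.9 ± 0.86%, SD, n = 3, exact permutation p = 0.1). TUBB4B took 29.7 ± 0.95% of the beta sum in BCSC and 26.3 ± 1.37% in non-BCSC, again without overlap (exact permutation p = 0.1). The smallest p that 3 against 3 libraries can give in this two-sided test is 0.1, so no share can pass 0.05. TUBB6 held 7.48 ± 0.70% against 6.04 ± 1.03% (exact permutation p = 0.2), with overlap. TUBB3 held 2.52 ± 0.45% against 2.70 ± 0.47% (exact permutation p = 0.6), TUBB4A 1.56 against 1.72% (exact permutation p = 0.8) and TUBB2A 0.93 against 0.99% (exact permutation p = 1), all overlapping. TUBB2B held 0.07 ± 0.016% against 0.38 ± 0.29%, without overlap (exact permutation p = 0.1). No share, beta or alpha, was recomputed with the correction for GC content and length. With that correction the log2 fold change was 0.92 for TUBB and 0.41 for TUBB4B, against 1.14 and 1.43 without it.

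Within the alpha sum the shares were further apart. TUBA1A held 11.5, 12.5 and 13.8% in the BCSC libraries and 24.5, 24.1 and 24.7% in the others. The BCSC shares lay 11.8 percentage points lower on average, well outside the spread of either group (12.6 ± 1.12% against 24.4 ± 0.32%, SD, n = 3, exact permutation p = 0.1). TUBA1B made up the larger part, with 71.8 ± 1.06% in BCSC against 63.3 ± 0.20%, and TUBA1C held 15.6 ± 0.35% against 12.2 ± 0.19%, both without overlap (exact permutation p = 0.1 for each). The TUBA1A difference was 7.58 percentage points when gene sums were divided by 1 mean length per gene, a scale that leaves out which transcript the counts were assigned to.

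**Figure D3:**
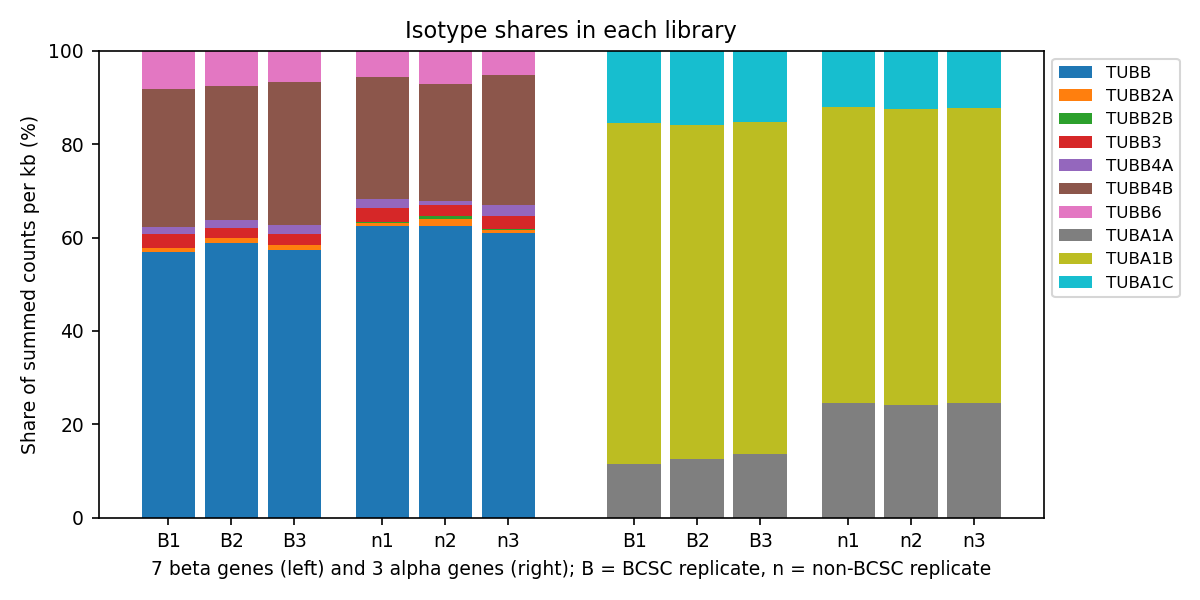
Share of each gene in the summed counts per kilobase of the 7 beta genes (left) and of the 3 alpha genes (right) in each library, as stacked bars in percent. TUBB takes 57.0 to 58.9% of the beta sum in BCSC and 60.9 to 62.4% in non-BCSC, and the grey TUBA1A segment is near 12.6% in BCSC and 24.4% in non-BCSC.

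The 10 genes had 90 transcripts on file, of which 25 passed the filter for a test over 46176 transcripts. At this level none was called (edgeR) apart from 1 that passed the filter only through the BCSC libraries. Of all tested transcripts, 0.593% were called higher and 0.191% lower. For TUBB, TUBB4B, TUBB4A, TUBA1B and TUBA1C the principal transcript carried 95.5 to 100% of the gene's counts on average in each group. TUBB6, TUBB3 and TUBB2A were less even, since the principal transcript of TUBB6 had 494, 0 and 234 counts in the non-BCSC libraries and that of TUBB3 278, 96 and 0. When only protein-coding transcripts were summed, neither TUBB6 (1.64 ± 1.25, adjusted p = 0.397) nor TUBB3 (1.43 ± 0.94, adjusted p = 0.324) was called, with log2 differences no smaller than for the gene sums and larger errors.

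That transcript was TUBA1A-201 (ENST00000295766.9), with 1469, 442 and 807 counts in BCSC and 0 in each non-BCSC library. It was at least 187-fold higher in BCSC, taking 3 counts per library as the floor, and since a transcript that passes the filter through 1 group alone has to differ, no test is given for it. TUBA1A-210 (ENST00000679733.1) showed the opposite arrangement, at 104, 0 and 37 counts in BCSC libraries and at 2281, 649 and 580 counts in non-BCSC libraries, although its adjusted p was 0.219. The principal transcript TUBA1A-202 (ENST00000301071.12) had 3478, 2843 and 2234 counts in the BCSC libraries and 1105, 2214 and 2000 counts in the others, with the lowest value in the library where TUBA1A-210 was highest. TUBA1A-202 did not differ detectably between groups (log2 fold change 0.13 ± 0.33, adjusted p = 0.906).

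These 3 transcripts differ at their 5′ part. TUBA1A-201 begins with a first exon of its own at GRCh37 chr12:49582200-49582682, which lies inside the first intron of TUBA1A-202, whose first exon is chr12:49582760-49582863. Its coding length is the same 1356 bases. That exon overlaps, on the opposite strand, the annotated start of TUBA1C (from 49582519) and the end of TUBA1B-AS1, and whether the counting used strand is not given in the sources used here, so reads of these genes may not be separable there. TUBA1A-210 keeps 23 more bases at the end of its second exon (chr12:49580371-49580393, minus strand) and has a coding length of 567 bases. The added bases are shown in capitals between 15 bases of flanking exon on each side, since they mark this transcript.
TUBA1A-210: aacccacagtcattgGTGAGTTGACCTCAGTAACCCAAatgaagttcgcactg
The 3 transcripts also end at different positions, so the counts do not say which of these features the reads covered.

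**Figure D4:**
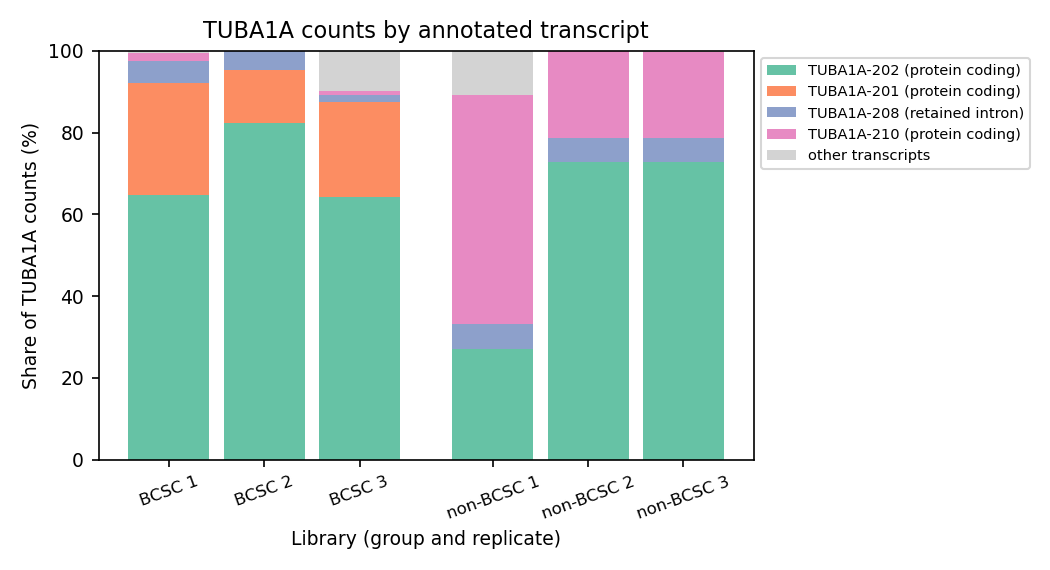
Share of the TUBA1A counts assigned to each annotated transcript in each library, in percent, for the 4 transcripts tested and all others together. TUBA1A-201 (orange) appears only in the 3 BCSC libraries and TUBA1A-210 (pink), with 2281 counts, takes the largest part of non-BCSC replicate 1.

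Promoters were read for the members because TUBB, TUBB4B and TUBA1C were higher in BCSC while TUBA1A was not. Sequences are from RefSeq (GRCh38.p14), the 250 bases upstream of the annotated start of the principal transcript, on the gene's strand. Capitals mark CCAAT and GGGCGG, searched on both strands (ATTGG and CCGCCC on the other strand).
TUBB: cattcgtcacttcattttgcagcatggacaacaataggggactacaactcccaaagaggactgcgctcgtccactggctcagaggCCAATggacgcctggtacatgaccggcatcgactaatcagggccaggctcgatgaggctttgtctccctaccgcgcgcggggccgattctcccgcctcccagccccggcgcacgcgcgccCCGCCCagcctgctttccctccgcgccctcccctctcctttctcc
TUBB4B: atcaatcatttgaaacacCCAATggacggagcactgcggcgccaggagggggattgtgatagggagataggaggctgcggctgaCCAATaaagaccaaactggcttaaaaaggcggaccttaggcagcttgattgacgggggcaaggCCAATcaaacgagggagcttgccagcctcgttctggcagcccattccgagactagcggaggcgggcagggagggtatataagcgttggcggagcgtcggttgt
TUBA1C: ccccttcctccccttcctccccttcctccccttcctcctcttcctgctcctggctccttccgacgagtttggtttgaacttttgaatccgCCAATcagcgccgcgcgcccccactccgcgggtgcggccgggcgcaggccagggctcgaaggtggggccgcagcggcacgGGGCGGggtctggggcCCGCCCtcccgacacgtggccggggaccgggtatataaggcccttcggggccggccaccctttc
TUBA1A: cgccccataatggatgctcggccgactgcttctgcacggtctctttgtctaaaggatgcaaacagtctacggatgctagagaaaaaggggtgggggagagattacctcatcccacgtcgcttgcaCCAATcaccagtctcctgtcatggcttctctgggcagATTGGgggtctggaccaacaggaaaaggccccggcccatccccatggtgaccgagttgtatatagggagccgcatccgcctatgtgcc
They lie at chr6:30720102-30720351 (plus strand) for TUBB, chr9:137241037-137241286 (plus strand) for TUBB4B, chr12:49264832-49265081 (plus strand) for TUBA1C and chr12:49189081-49189330 (minus strand) for TUBA1A. TUBB4B held 3 copies of CCAAT and none of GGGCGG, TUBA1A 2 and none, TUBB 1 of each, and TUBA1C 1 CCAAT and 2 GGGCGG. All 10 members had such a promoter entry. CCAAT was found in 7 of the 10 and in 32.0% of 35116 promoters of the same length, GGGCGG in 8 of 10 and in 42.6%, TATAAA in 1 of 10 and in 10.7%, and TTTGAA in 2 of 10 and in 13.3%. Members were counted by 1 promoter each, whereas the 35116 include alternative starts of the same gene, so the sets are not alike. Of the 7 members with CCAAT, 5 were the genes called higher and 2 (TUBB2B and TUBA1A) were not called. TUBA1B, TUBB2A and TUBB4A had no CCAAT there and were not called, although their BCSC libraries all lay above the non-BCSC libraries. TUBA1B had an adjusted p of 0.00599 (edgeR) and missed only the 2-fold limit. At any annotated start 8 of the 10 held CCAAT, TUBB4A among them. With the GC and length correction no member was called. This grouping by CCAAT was seen after the values were known and was not tested.

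Genes that act on or with tubulin were taken from lists by function. Of the other alpha and beta tubulins, 2 of 8 passed the filter and neither was called, with TUBA4A at 0.85 ± 0.38 (log2, adjusted p = 0.115) and TUBA8 at −0.07 ± 1.46. The other 6 were too low to test. Of 13 genes for gamma, delta and epsilon tubulin and the gamma-tubulin ring complex, which starts microtubules at the centrosome, 3 were called higher and none lower, and their median log2 fold change was 0.48 (8.85% of all tested genes were called higher). TUBG1, gamma-tubulin itself, was higher by 1.26 ± 0.31 (adjusted p = 0.0152), TUBGCP2 by 1.16 ± 0.24 (adjusted p = 0.00816) and TUBGCP6 by 1.02 ± 0.34 (adjusted p = 0.0495). With the correction for GC content and length the same genes were at 0.55, 0.31 and −0.13, and none of the 3 was called, while 2 other genes of the list were called higher, as were 15.1% of all tested genes.

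None of the 14 chaperonin and prefoldin genes was called, and their median was −0.11. By adjusted p alone 2 were higher and 1 lower, where 15.3% and 14.6% of all tested genes were. VBP1, a prefoldin subunit, was at 0.54 (adjusted p = 0.0297). CCT3 was higher in BCSC (0.93 ± 0.14, adjusted p = 0.00202) and CCT6A lower (−0.70 ± 0.10, adjusted p = 0.00173), although both encode subunits of the same ring, and the sign of CCT6A turned with the GC and length correction (0.50). With that correction 3 of the 14 were called higher, against 15.1% of all tested genes. None of 7 folding cofactors was called either (median 0.58), and 1 was called higher with the correction. TBCA, which holds beta tubulin, was at −0.63 ± 0.13 (adjusted p = 0.0073) and TBCB, which holds alpha tubulin, at 0.98 ± 0.26 (adjusted p = 0.0212), and both signs turned with the correction (0.66 and −0.20). Neither TTC5 (−0.33 ± 0.23, adjusted p = 0.315) nor SCAPER (−0.30 ± 0.17, adjusted p = 0.198), which serve the decay of tubulin mRNA, was called, and both were positive with the correction (0.47 and 0.64).

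Of 21 enzymes tested that modify tubulin, 4 were called higher and 2 lower, with a median of 0.34, where 8.85% of all tested genes were called higher and 11.3% lower. TTL, which restores the terminal tyrosine of alpha tubulin, averaged 206 ± 9.52 CPM in BCSC and 99.9 ± 14.7 in non-BCSC, a log2 fold change of 1.05 ± 0.13 (adjusted p = 0.00083) that was 1.46 after the correction. SIRT2, a tubulin deacetylase, was higher by 1.57 ± 0.28 (adjusted p = 0.00409), ATAT1, the alpha-tubulin acetyltransferase, by 1.33 ± 0.43 (adjusted p = 0.0439) and TTLL12, a relative of TTL, by 1.37 ± 0.35 (adjusted p = 0.017). VASH2, which with SVBP removes that tyrosine, was lower in BCSC (−1.57 ± 0.49, adjusted p = 0.0372), and so was AGBL1, a deglutamylase (−2.22 ± 0.60, adjusted p = 0.0213). Both were rare, as VASH2 averaged 2.77 and 8.24 CPM in BCSC and non-BCSC and AGBL1 2.33 and 10.9. The olfactory receptor background was also higher in non-BCSC, and its part in the VASH2 and AGBL1 values was not tested. VASH1 (2.46 ± 1.39, adjusted p = 0.203) and MATCAP1 (0.65 ± 0.49, adjusted p = 0.335) in the same list were positive. SVBP was negative (−0.72 ± 0.64, adjusted p = 0.413), and none of these was called. With the correction 4 enzymes were called higher and 2 lower (15.1% and 9.04% of all tested genes), but SIRT2 (0.63, adjusted p = 0.0939) and TTLL12 (0.26, adjusted p = 0.41) were not among them.

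**Figure D5:**
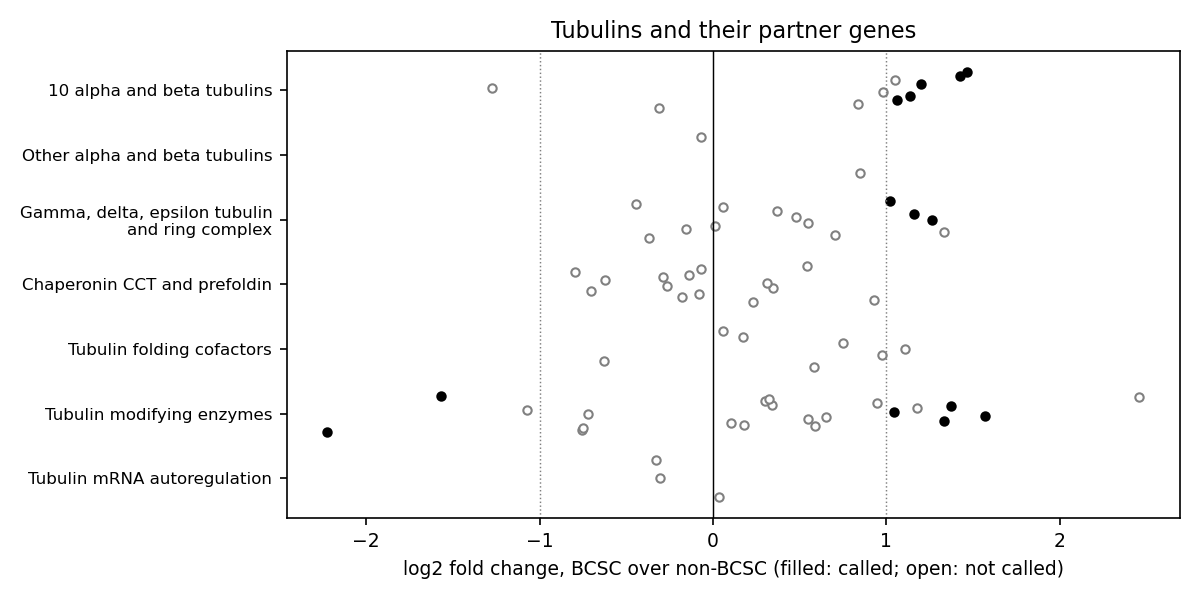
Log2 fold change of BCSC over non-BCSC for the 10 tubulins and for tested genes of 6 partner lists, 1 point per gene, filled where called and open where not. Among the partners, 3 genes of the gamma-tubulin list and 4 modifying enzymes are called higher, 2 modifying enzymes are called lower, and no chaperonin, cofactor or autoregulation gene is called.

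Genes of dividing cells were compared because the mitotic spindle is built of tubulin. Of 12 markers 2 were called higher in BCSC (AURKA and MCM2) and none lower, where 8.85% of all tested genes were called higher. Their median log2 fold change was 0.15, and their summed level was 6076 to 6861 CPM in BCSC and 5828 to 6482 in non-BCSC. With the GC and length correction 6 of the 12 were called higher and none lower, where 15.1% of all tested genes were called higher. MKI67 (0.13) and TOP2A (−0.13) were not called. Their part in the tubulin values was not tested.

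The genes whose pattern over the 6 libraries was most like that of TUBB were THY1, KLHDC4 and ZDHHC16, with root mean square differences of 0.062, 0.066 and 0.076 in log2 CPM, each gene centred on its own mean, among 10456 genes. For TUBA1B they were EIF5A (0.038), STOML2 (0.052) and CLK2 (0.052). Among the tubulins with enough counts for this measure, TUBA1C was nearest to both TUBB (0.14) and TUBA1B (0.12), and TUBA1A was farthest from both (0.74 and 0.57). All of these distances include the difference between the groups and the depth that differed with it. The non-tubulin genes named here had a GC content of 53.3% (STOML2) to 57.8% (THY1), above the upper quartile of tested genes (53.0%). The part of GC content in these distances was not tested.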

How the data were processed

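Long non-coding RNA sequencing of 6 libraries, 3 BCSC and 3 non-BCSC, was analysed. The authors deposited estimated counts per transcript, not normalised, from reads aligned with HISAT2, and all values were whole numbers, so no rounding was needed. How reads were divided among the transcripts of a gene is not given in the sources used here. Per the labels, libraries were made with dUTP in the second strand; strand use in counting is not given in the sources used here. The submitters' processing notes name HISAT2, featureCounts, DESeq2 and hg38, whereas the study's methods for RNA-Seq name hg19. Coordinates here are GRCh37 from GENCODE v44 matched by identifier, and promoters are GRCh38.p14. Groups came from sample titles, since the cell type label is the same for all 6.

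Of 252618 transcripts, 249616 (98.8%) were matched and summed per gene, and 4 assembler identifiers were left out; at most 0.341% of a library's counts were unmatched. Gene sums were tested with edgeR 4.0.16 (TMM, filterByExpr, robust quasi-likelihood test, Benjamini-Hochberg adjustment) in R 4.3.3. CPM use TMM-scaled totals, except for the olfactory receptor background, which uses unadjusted totals. Shares were compared by an exact two-sided permutation test over libraries (20 permutations). The GC and length correction used loess offsets (span 0.3) per library, on GC content and length averaged over all annotated transcripts of a gene. Transcripts without counts were included in these averages. The mean length was 734 bases for TUBB4A, against 2277 for its principal transcript, and 1151 bases for TUBA1C, against 2823. Other fits used DESeq2 1.42.0 or other filters, sums and library sets. The edgeR test, and no other, was also run on simulated counts, and the outcome is not reported here. Totals of 9898588 to 21215352 counts set the precision; replicates differed by more than sampling noise.

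All 10 members are named with values. Of each partner list, the called genes with the smallest p are named, up to 4 in each direction, or else the 2 genes with the smallest p; genes most like TUBB and TUBA1B are the 3 nearest non-tubulin genes with at least 100 counts on average. Cell type markers are named where they bear on a member. Members and lists were chosen with earlier results of these data known. The ends of the alpha coding sequences and 1 blood cell marker are not reported here.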

Additional observations from a re-analysis of the deposited data

How the results depend on the processing

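The count of 5 members called higher fell to 3 with at least 10 counts required in every library, 2 with the olfactory receptor background removed, 2 with protein-coding transcripts only, 1 with transcripts as deposited (a TUBA1A transcript with 0 counts in non-BCSC) and 0 with the GC content and length correction. Leaving out 1 library gave 2 to 7 (2 without BCSC replicate 1). The other alternatives gave 4 to 6, and none of the 10 was called lower under any alternative. The share of all genes called is given only for the main fit, the GC and length correction and the transcript test. For the other alternatives a change particular to the members cannot be told from a general one. Removing the filter moved the median log2 fold change of all genes by −0.97 and removing the background moved it by 0.14. TUBB4A turned from 1.05 to −0.29 with the GC content and length correction. The TUBB share difference of −4.16 percentage points was −3.16 on raw counts and −5.74 with protein-coding transcripts only, and −4.73 to −3.77 with 1 library left out. The TUBA1A share difference of −11.8 was −7.58 with 1 mean length per gene and −11.8 with the background removed, and −12.4 to −11.3 with 1 library left out. No share was recomputed with the GC content and length correction. With the replicate number as a block, TUBB4A was called (1.16, adjusted p = 0.0197) and 6 members in all. The labels give no pairing and the same-number correlations were 0.18, 0.014 and 0.22, with BCSC replicate 2 nearest to non-BCSC replicate 1 (0.054), so the numbers were not treated as pairs. Of the other values recomputed, 210 stayed on their side of the threshold or, for shares, within the replicate SD, 19 lost a call, 6 gained one and 11 moved by more. Of the 210, 6 small share differences changed sign (TUBB2A 3 times, TUBB3 2 and TUBB4A 1, all at most 0.25 percentage points). With protein-coding transcripts only, TUBB2B gave no fold change, since no counts were left to test. Depth limited TUBB2B most, at 23 to 94 counts per library.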
